A study of Mus musculus with 30 samples.

Results

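Blood leukocytes taken 5 days after cyclophosphamide were compared with blood leukocytes taken 1 day after it. The 7 samples were chosen by the time after injection that their titles give, 3 at day 5 and 4 at day 1, of 15 blood samples in all. All 7 came from DBA/2 mice, an inbred strain, given cyclophosphamide at a dose of 83 mg per kg into the peritoneal cavity. The samples are described as independently harvested, so p-values measure the spread between harvests. The series also holds 4 samples of untreated mice and 4 of mice at day 2, which are used here to place the values of the day 1 and day 5 samples. RNA of each blood sample, amplified and labelled with Cy5, was hybridised on a 2-colour array against bone marrow RNA labelled with Cy3. The marrow pool is called untreated in one label, while the treatment text of the same channel names cyclophosphamide. Each value is a log ratio, taken as log2, of blood over that marrow pool, so a negative value is a lower signal in blood than in marrow. If the pool was the same on every array, it drops out of the change, which is always the day 5 mean minus the day 1 mean.

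Cyclophosphamide is a prodrug that liver enzymes turn into DNA cross-linking metabolites, and it kills dividing cells. Circulating leukocytes are short-lived to different degrees and are replaced from dividing marrow precursors, so the white cell count of the blood falls in the days after a dose and is then refilled from the marrow. Blood sampled across this period can hold different proportions of lymphocytes, granulocytes, platelets and young red cells, each with its own marker genes. In bulk RNA, fewer cells of a type and less RNA of a gene per cell cannot be told apart.

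Across 4920 features with values in all 15 samples, day 1 samples correlated with each other at r between 0.857 and 0.93, and day 5 samples at r between 0.675 and 0.808. Replicate 2 of day 5 stood farthest from day 1, with r between 0.457 and 0.628 to its 4 samples, against 0.57 to 0.761 for the other day 5 samples. The 2 columns of a sample correlated at r between 0.859 and 0.95, and each column held values for 6228 to 9398 of 13443 probes (46.3% to 69.9%), the rest being empty for reasons not known here. Several genes that define blood cell types could not be tested: Csf1r is not among the named probes, Cd3e and S100a8 had no value in these samples, and Cd79a had a value in 1 day 1 sample and 1 day 5 sample. Leukocyte genes that were measured in all 7 samples included Cd22, Nkg7, Csf3r and Trem1. The platelet list lay far above the marrow pool in every sample, with a median log2 ratio of 3.41 to 3.69 at day 1 and of 3.35, 2.48 and 3.50 at day 5. The lowest of these medians was that of day 5 replicate 2.

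Between day 1 and day 5 the blood changed broadly and in both directions. Of 7599 features tested, 1181 (15.5%) passed an adjusted p of 0.05 in limma, 624 higher at day 5 (8.21%) and 557 lower (7.33%). Among the called features, 846 had a gene symbol. The changes ran from -3.67 to 2.27 log2 units, with a median of -0.03 over all features tested and a median standard error (SE) of 0.17. At least 1 log2 unit separated the groups in 128 features called higher and 91 called lower. Rises of 2 units or more were made by 4 features and falls of that size by 13. In 1092 features (14.4%) every day 5 value lay above every day 1 value, and in 1130 (14.9%) every day 5 value lay below. The number of calls depended on single samples. It was 700 without day 1 replicate 1, 661 without day 1 replicate 2, 647 without day 5 replicate 1 and 661 without day 5 replicate 2, while it was 1520 without day 5 replicate 3.

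**Figure D1:**
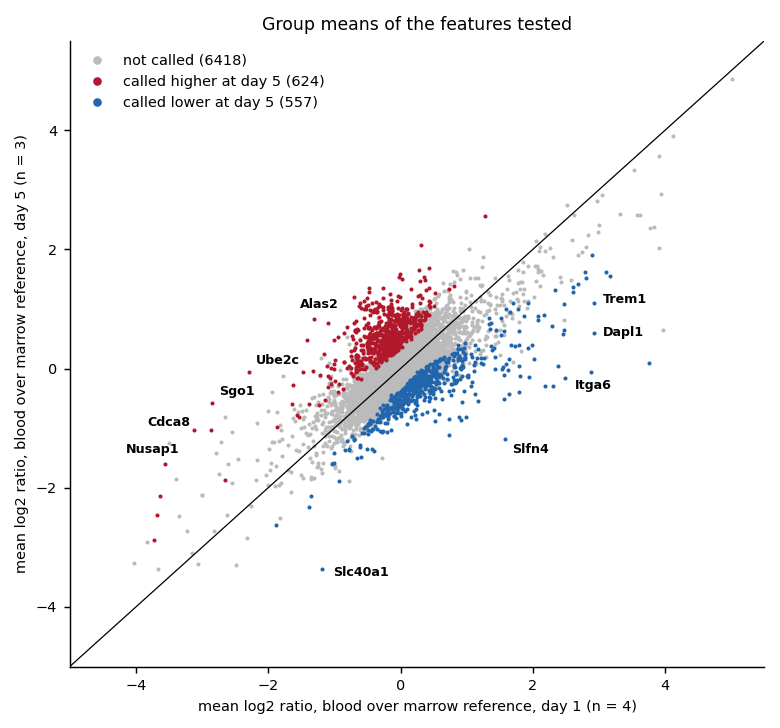
Mean log2 ratio of blood over the marrow reference at day 1 (horizontal axis, 4 samples) and at day 5 (vertical axis, 3 samples) for the 7599 features tested, with the diagonal where the means are equal. Red points are the 624 features called higher at day 5, blue points the 557 called lower, and Slc40a1, Slfn4 and Itga6 lie far below the diagonal while Sgo1, Ube2c and Cdca8 lie above it at negative ratios.

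Genes of mitosis were among the largest rises. Sgo1, which protects the cohesion of sister centromeres, Ube2c, the ubiquitin-conjugating enzyme of the anaphase-promoting complex, and Cdca8, the borealin subunit of the chromosomal passenger complex, took 3 of the 4 largest rises among named genes, and Nusap1, which bundles spindle microtubules, took the next. The log2 ratio of Sgo1 was -2.79, -3.05, -2.78 and -2.76 in the day 1 samples and -0.76, -0.22 and -0.74 in the day 5 samples. Every day 5 sample was thus well above every day 1 sample, while all stayed below the marrow pool. Its change was 2.27 (SE 0.45, adjusted p = 0.00432), a 4.83-fold rise on the log2 reading. Ube2c had values of -1.93, -3.03, -1.90 and -2.33 at day 1 and of -0.13, -0.25 and 0.22 at day 5, a change of 2.24 (SE 0.54, adjusted p = 0.0135). Cdca8 rose from -2.81, -3.36, -3.04 and -3.28 to -1.37, -0.93 and -0.79, by 2.09 (SE 0.48, adjusted p = 0.00954). Nusap1 rose from -3.81, -4.01, -2.82 and -3.58 to -1.76, -1.77 and -1.28, by 1.95 (SE 0.38, adjusted p = 0.00386). For each of the 4 genes the groups did not overlap, and the call held under each of the 19 alternative settings, each left-out sample included.

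The cell division list as a whole was uneven. Of its 22 tested members 3 were called higher (Ube2c, Cdca8, Nusap1) and 1 lower, against 8.21% and 7.33% of all features tested, and 17 had a positive change, with a median of 0.68. That median was 0.42 after quantile normalization and 0.43 without day 5 replicate 2. Prc1, which bundles the microtubules of the spindle midzone, changed by 1.83 (SE 0.63, adjusted p = 0.0597), and Ect2, which starts cytokinesis, by 1.48 (SE 0.50, adjusted p = 0.058). Both are named because their values were seen, and neither was called. Smc4, a condensin subunit, went the other way: its values of -0.59, -0.57, -0.63 and -0.63 at day 1 were all above those of -1.48, -1.38 and -1.09 at day 5, a fall of -0.71 (SE 0.13, adjusted p = 0.00245). Mki67, the proliferation marker, was not tested, having values in only 2 day 1 samples (0.08 and -0.18) and in all 3 day 5 samples (0.55, 0.32 and 0.26). The list for DNA replication and nucleotide supply gave 1 call among 24 tested members, with a median change of 0.12. That call was Rpa3, the small subunit of the single-strand binding complex, which rose from between -1.03 and -0.95 to -0.18, 0.47 and 0.15 (change 1.13, SE 0.24, adjusted p = 0.00549). Tyms, which makes thymidylate, had the largest change of the list at 1.39 but an SE of 0.63 (adjusted p = 0.148). None of 5 histone members was called, from H2bc4 at -0.59 to H2ax at 0.46, and 0 of them had an unadjusted p under 0.05 in limma.

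**Figure D2:**
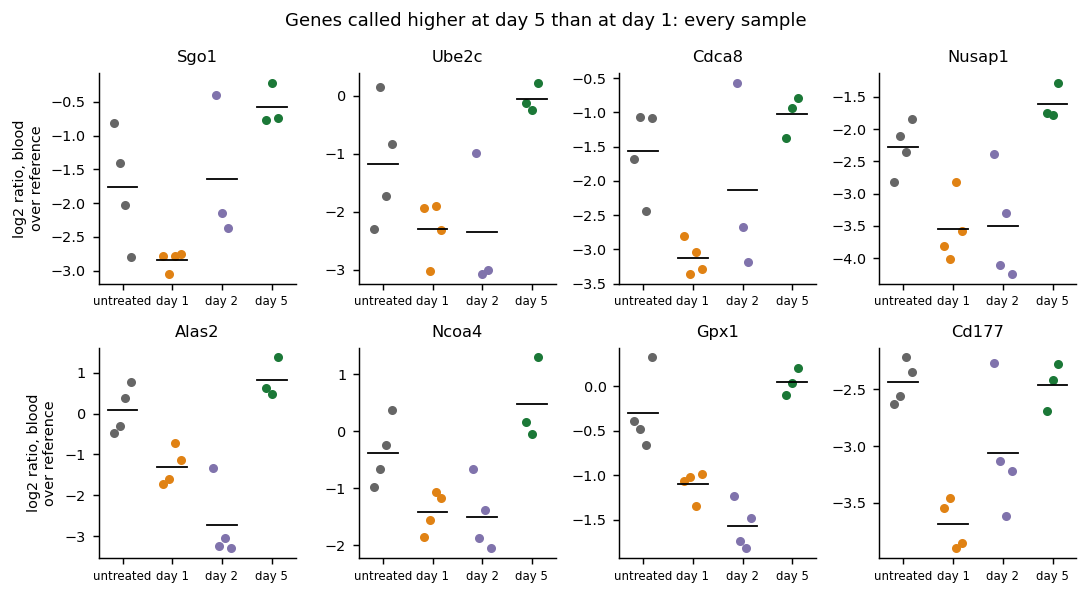
Log2 ratio of blood over the marrow reference (vertical axes, which differ between panels) in every untreated, day 1, day 2 and day 5 sample for 8 genes called higher at day 5 than at day 1. Points are samples and bars are group means, and in each panel all 3 day 5 points lie above the 4 day 1 points, Sgo1 at -0.76 to -0.22 against -3.05 to -2.76.

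Promoters of cell division genes often carry CCAAT boxes and a cell cycle homology element (CHR). The CHR is known to be used by the machinery that represses these genes outside the cycle. The 150 bases before the annotated start are shown for the 4 mitotic genes, from RefSeq on GRCm38.p6, with the letters CCAAT and TTTGAA, searched on both strands, in capitals. They lie at chr2:164769779-164769928 (plus strand) for Ube2c, chr4:124936918-124937067 (minus strand) for Cdca8, chr2:119618148-119618297 (plus strand) for Nusap1 and chr17:53689316-53689465 (minus strand) for Sgo1, each written 5′ to 3′ along its gene.
Ube2c: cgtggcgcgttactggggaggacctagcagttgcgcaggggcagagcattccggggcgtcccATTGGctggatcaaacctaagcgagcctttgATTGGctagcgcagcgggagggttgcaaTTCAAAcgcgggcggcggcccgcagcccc
Cdca8: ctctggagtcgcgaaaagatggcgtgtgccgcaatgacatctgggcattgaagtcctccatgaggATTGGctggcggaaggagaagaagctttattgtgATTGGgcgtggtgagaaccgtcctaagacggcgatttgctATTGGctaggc
Nusap1: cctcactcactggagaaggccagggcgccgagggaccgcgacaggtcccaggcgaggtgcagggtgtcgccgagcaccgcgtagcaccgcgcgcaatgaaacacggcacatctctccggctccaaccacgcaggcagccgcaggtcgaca
Sgo1: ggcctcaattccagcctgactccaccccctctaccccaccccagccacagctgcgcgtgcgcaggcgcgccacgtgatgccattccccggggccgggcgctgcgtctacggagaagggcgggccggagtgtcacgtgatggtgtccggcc
Ube2c held both kinds, CCAAT on the minus strand with its farthest base 88 and 57 bases upstream and TTTGAA on the minus strand at 29 to 24. Cdca8 held 3 CCAAT boxes, all on the minus strand, with farthest bases 85, 51 and 11 bases upstream. Neither set of letters was in the windows of Nusap1 and Sgo1. Of the 22 tested members of the cell division list 18 were matched by symbol, of which 14 held CCAAT and 7 held TTTGAA. A gene was counted if any of its windows held the letters, and some genes had several windows. The shares that follow are of single windows, so the counts are not strictly comparable with them. Among 32843 windows of the same length 24.5% held CCAAT and 9.07% held TTTGAA. A match is a description of letters, and binding was not measured.

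Genes of heme and iron handling gave large changes in both directions. Alas2, the first enzyme of heme synthesis in red cell precursors, had log2 ratios of -1.73, -1.60, -0.73 and -1.15 at day 1 and of 0.64, 0.49 and 1.39 at day 5. All day 5 samples were above the marrow pool and all day 1 samples below it, and the change was 2.14 (SE 0.43, adjusted p = 0.00445), or 4.40-fold. Ncoa4, the receptor that carries ferritin to its breakdown, rose from -1.86, -1.55, -1.07 and -1.17 to 0.16, -0.041 and 1.30, by 1.89 (SE 0.38, adjusted p = 0.0044). Slc40a1, or ferroportin, the cell's iron exporter, fell from -1.15, -1.36, -1.29 and -0.94 to -3.87, -2.62 and -3.60. Its change of -2.18 (SE 0.22, adjusted p = 0.000135) left no overlap, the least negative day 5 value being that of replicate 2. Hamp, which encodes hepcidin, the hormone that removes ferroportin from membranes, was higher at day 5 (0.67, 0.44 and 0.54 against -0.084 to 0.025), by 0.59 (SE 0.11, adjusted p = 0.00317). Of the 8 iron genes tested, 2 were thus called higher and 1 lower, against 8.21% and 7.33% of all features tested.

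Most other red cell genes were not called. The erythroid list gave 3 calls higher and 1 lower among 20 tested members, against 8.21% and 7.33% of all features tested. Its median change was 0.15. Tspo2, a membrane protein of red cell precursors, rose by 0.79 (SE 0.24, adjusted p = 0.0368) and Bnip3l, which removes mitochondria from reticulocytes, by 0.57 (SE 0.14, adjusted p = 0.0125). Rhag, a Rh-associated membrane glycoprotein, fell by -0.60 (SE 0.18, adjusted p = 0.033). The Tspo2 call was lost without day 1 replicate 1, 2 or 4 or day 5 replicate 1 or 2 (changes of 0.72 to 0.76), the Bnip3l call without day 5 replicate 1 (0.53, adjusted p = 0.0536), and the Rhag call without any sample but day 5 replicate 3 (-0.63 to -0.45). Hba-a1, an alpha globin whose probe may also read its near-identical copy, had values of -1.10 to -0.98 at day 1 and of -1.01, -1.15 and -0.78 at day 5, which overlapped (change 0.06, SE 0.14, adjusted p = 0.819). In the RefSeq window of Alas2 on GRCm38.p6, chrX:150547267-150547416 (plus strand), the letters AGATAA, a sequence that GATA factors bind, were searched on both strands and occurred on the minus strand at 86 to 81 bases upstream. They are shown in capitals, and 5.65% of all windows of this length held them.
Alas2: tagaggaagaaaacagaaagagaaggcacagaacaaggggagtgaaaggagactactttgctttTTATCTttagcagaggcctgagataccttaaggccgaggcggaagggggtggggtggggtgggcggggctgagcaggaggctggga

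No platelet gene was called. The 9 tested members of the platelet and megakaryocyte list had a median change of -0.21, which turned to 0.20, with 1 member called higher, after quantile normalization. Without day 5 replicate 2 it was -0.12, and without day 5 replicate 3 it was -0.47, with 1 member called lower. The members ran from Treml1, a receptor of platelet granules, at -1.04 (SE 0.42, adjusted p = 0.103) to F2rl2, a thrombin receptor subunit, at 0.10 (SE 0.33, adjusted p = 0.867), and 1 of them had an unadjusted p under 0.05 in limma. Pf4, platelet factor 4, was at 4.43, 3.74, 3.81 and 3.77 at day 1 and at 3.78, 1.59 and 3.41 at day 5. The low value belonged to replicate 2, which was also lowest for Treml1 (1.18 against 3.19 and 3.35 in the other day 5 samples). Itga2b, the platelet integrin alpha IIb, changed by -0.34 (SE 0.28, adjusted p = 0.436), and by 0.20 after quantile normalization.

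Many of the other large rises varied alike between the samples within groups. Syt9, a synaptotagmin of vesicle fusion, was at -0.99, -1.01, 0.42 and -0.32 at day 1 and at 1.61, 1.41 and 1.05 at day 5, a change of 1.83 (SE 0.30, adjusted p = 0.00217). Day 1 replicate 3 was its highest day 1 sample and replicates 1 and 2 its lowest. That order also held for Daw1, an assembly factor of cilia (change 1.76, SE 0.27), Myf6, a muscle transcription factor (1.68, SE 0.29), Gstt3, a glutathione transferase (1.57, SE 0.26), Hdac7, a histone deacetylase (1.62, SE 0.33), and Anxa4, a calcium-dependent membrane-binding protein (1.69, SE 0.33). Vav2, a guanine nucleotide exchange factor, rose by 1.85 (SE 0.40), Pcbp1, an RNA-binding protein that also delivers iron, by 1.62 (SE 0.24), and Otp, a homeobox factor, by 1.59 (SE 0.36). The adjusted p of these 8 genes lay between 0.00156 and 0.0108. The Otp call was lost without day 5 replicate 1 (1.48, adjusted p = 0.0515) and without day 5 replicate 2 (1.48, adjusted p = 0.0504). Several of these genes are best known from muscle, brain or cilia. As a description chosen after the values were seen, deviations from the group means over all 15 samples correlated with those of Syt9 at r of 0.936 for Myf6, 0.895 for Daw1, 0.853 for Gstt3, 0.815 for Anxa4, 0.792 for Hdac7, 0.772 for Vav2 and 0.763 for Pcbp1. Of other genes named for large rises, Nusap1 was at 0.673 and Alas2 at 0.668, and over 14 samples each Ube2c was at 0.216, Cdca8 at 0.0961 and Sgo1 at -0.0476. List members called higher and described below varied as widely. Izumo1r was at 0.856, Pdia4 at 0.767, Flt1 at 0.737, Ccr9 at 0.72 and Tnfrsf10b at 0.663. Cd72 was at 0.312, Gpx1 at 0.0313, Vcan at -0.0161 and Ccl2 at -0.167. Deviations at r of 0.8 or more were seen in 75 of 565 features called higher (13.3%), in 0 of 524 called lower and in 4 of 4686 not called. The 75 include Syt9 itself, which was picked from the features called higher, and that choice favours this group.

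Some redox and secretory genes were among the calls. The list for aldehyde, glutathione and redox enzymes, which includes those that handle reactive drug products, had 5 members called higher and 2 lower among 20 tested. Over all features tested 8.21% were called higher and 7.33% lower. The median change of the list was 0.19. Gpx1, the main cytosolic glutathione peroxidase, was at -1.07, -1.02, -1.34 and -0.98 at day 1 and at -0.10, 0.037 and 0.21 at day 5. The groups were far apart relative to their spread, and the change was 1.15 (SE 0.20, adjusted p = 0.00242). Mgst3 (1.49, SE 0.45, adjusted p = 0.0359) and Mgst1 (0.78, SE 0.16, adjusted p = 0.00561), both microsomal glutathione transferases, were also higher, as were Prdx3, the mitochondrial peroxiredoxin (0.74, SE 0.22, adjusted p = 0.0351), and Gpx3, the secreted peroxidase (0.71, SE 0.16, adjusted p = 0.00903). Txn1, thioredoxin, fell from between -0.68 and -0.23 to -1.45, -1.00 and -1.58, by -0.84 (SE 0.16, adjusted p = 0.00375). Gsto1, an omega-class glutathione transferase, fell by -1.27 (SE 0.38, adjusted p = 0.0346). Of these, the calls on Mgst3 (1.29 to 1.55) and Prdx3 (0.65 to 0.80) were lost without day 1 replicate 1, 2 or 4 or day 5 replicate 1 or 2, that on Gsto1 without day 1 replicate 1 or 2 or any day 5 sample (-1.41 to -1.06), and that on Gpx3 without day 5 replicate 1 (0.57, adjusted p = 0.0552). In the list for protein folding and secretion 2 of 16 members were called, both higher: Sec61g, a subunit of the channel into the endoplasmic reticulum (1.41, SE 0.22, adjusted p = 0.00193), and Pdia4, a disulfide isomerase there (1.28, SE 0.34, adjusted p = 0.0213). The median of that list was -0.04, and its share of calls was not above the 15.5% of all features tested.

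Neutrophil genes went both ways. Trem1, a receptor that amplifies inflammatory signals in neutrophils and monocytes, had log2 ratios of 3.04, 3.20, 2.45 and 3.01 at day 1 and of 1.07, 0.71 and 1.50 at day 5, a fall of -1.83 (SE 0.30, adjusted p = 0.00217). Csf3r, the receptor for granulocyte colony-stimulating factor, fell from 1.06, 0.96, 0.45 and 0.91 to -0.18, -0.093 and -0.40, by -1.07 (SE 0.23, adjusted p = 0.00634). No day 5 value of either gene reached a day 1 value. Cd177, a neutrophil surface glycoprotein, rose from -3.54, -3.46, -3.90 and -3.85 to -2.69, -2.42 and -2.28, by 1.22 (SE 0.24, adjusted p = 0.0037). After quantile normalization its change was 0.76 and was not called (adjusted p = 0.106). S100a9, the calgranulin abundant in neutrophils, ranged so widely at day 5 (-3.83, -2.78 and -1.91) that it overlapped day 1 (-2.51 to -2.18; change -0.51, SE 0.40, adjusted p = 0.415). In all, 1 of 11 mature neutrophil members was called higher and 2 lower, against 8.21% and 7.33% of all features tested. The median change was -0.42. That median was -0.02 without day 5 replicate 1. Of 9 genes of neutrophil precursor granules, Mgst1 was called higher and Nkg7, which that list shares with the cytotoxic list, lower, with a median of 0.29 that became -0.09 after quantile normalization.

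Some mast cell and basophil genes were higher at day 5. Of 8 tested members of the eosinophil, basophil and mast cell list 4 were called higher and 0 lower, against 8.21% and 7.33% of all features tested, with a median change of 0.34. A positive change was seen in 5 members and a negative change in 3, the lowest being Ccr3 at -0.30, which was not called. The number called higher was 1 without day 1 replicate 1 or without day 5 replicate 2, and 2 without day 1 replicate 2 or without day 5 replicate 1. Cpa3, the mast cell carboxypeptidase, was at -1.40, -0.95, -0.74 and -0.95 at day 1 and at -0.27, 0.49 and -0.24 at day 5 (change 1.00, SE 0.25, adjusted p = 0.015). Tpsb2, a mast cell tryptase, rose by 0.78 (SE 0.15, adjusted p = 0.00393), Il4, a cytokine of basophils and helper T cells, by 0.68 (SE 0.19, adjusted p = 0.025) and Cd200r3, a receptor of basophils and mast cells, by 0.41 (SE 0.11, adjusted p = 0.0226). The groups overlapped for Il4. Deviations from the group means correlated with those of Syt9 at r of 0.749 for Cd200r3, 0.695 for Il4, 0.637 for Tpsb2 and 0.116 for Cpa3. The changes of the first 3 genes may thus not be separate from the variation within groups that Syt9 shows, which was not tested. The calls on 3 of the 4 genes did not hold without some single samples: Cpa3 was not called without day 1 replicate 1 (0.87, adjusted p = 0.0517) or day 5 replicate 2 (0.76, adjusted p = 0.0875), and Il4 (0.59 to 0.61) and Cd200r3 (0.35 to 0.40) were not called without day 1 replicate 1 or 2 or day 5 replicate 1 or 2. The monocyte and macrophage list had 12 of 15 changes above 0 and a median of 0.26, but 1 call, Vcan, a matrix proteoglycan made by monocytes (0.73, SE 0.20, adjusted p = 0.024). The Vcan call was lost without day 1 replicate 1 (0.72), day 1 replicate 3 (0.64) or day 5 replicate 2 (0.53). Lyz2, the myeloid lysozyme, changed by 0.42 (SE 0.23, adjusted p = 0.25) over 3 day 1 and 2 day 5 values. Of 6 dendritic cell members only Ccr9, the gut-homing chemokine receptor that marks plasmacytoid dendritic cells and some T cells, was called, at 0.94 (SE 0.15, adjusted p = 0.00217).

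Interferon-induced genes that were called were lower at day 5. Of 18 tested members 3 were called lower and 0 higher, against 7.33% and 8.21% of all features tested. A negative change was seen in 15, and the median was -0.28 beside -0.03 over all features tested. Ifi27l2a, an interferon-induced mitochondrial protein, had values of 1.97, 1.60, 1.58 and 1.20 at day 1 and of 0.019, 0.35 and -0.14 at day 5, a fall of -1.52 (SE 0.16, adjusted p = 0.000179). Rtp4, an interferon-induced receptor transporter, fell from 1.11, 1.44, 0.65 and 1.29 to -0.66, -0.40 and -0.25, by -1.56 (SE 0.25, adjusted p = 0.00202). Gbp2, a guanylate-binding protein of cell-autonomous defence, fell from 2.76, 3.09, 2.25 and 2.66 to 0.89, 1.65 and 1.71, by -1.27 (SE 0.23, adjusted p = 0.00297). The groups were apart for all 3 genes, and their calls held in all 19 alternatives. Psmb8, the immunoproteasome subunit, changed by -0.48 without being called (SE 0.17, adjusted p = 0.0766), while Igtp, an interferon-induced GTPase, had the highest change of the list, 0.45 (SE 0.18, adjusted p = 0.117). Without day 1 replicate 3 the number of members called lower was 5. The core of the interferon-stimulated response element, taken as GAAA, any 2 bases and GAAA again and searched on both strands, lay on the minus strand at 59 to 50 bases upstream of Gbp2 in the RefSeq window chr3:142620513-142620662 (plus strand, GRCm38.p6), shown with the match in capitals. It was in 1.59% of all windows of this length.
Gbp2: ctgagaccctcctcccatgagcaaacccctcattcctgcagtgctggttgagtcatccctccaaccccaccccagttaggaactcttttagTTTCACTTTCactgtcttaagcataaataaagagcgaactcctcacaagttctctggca

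**Figure D3:**
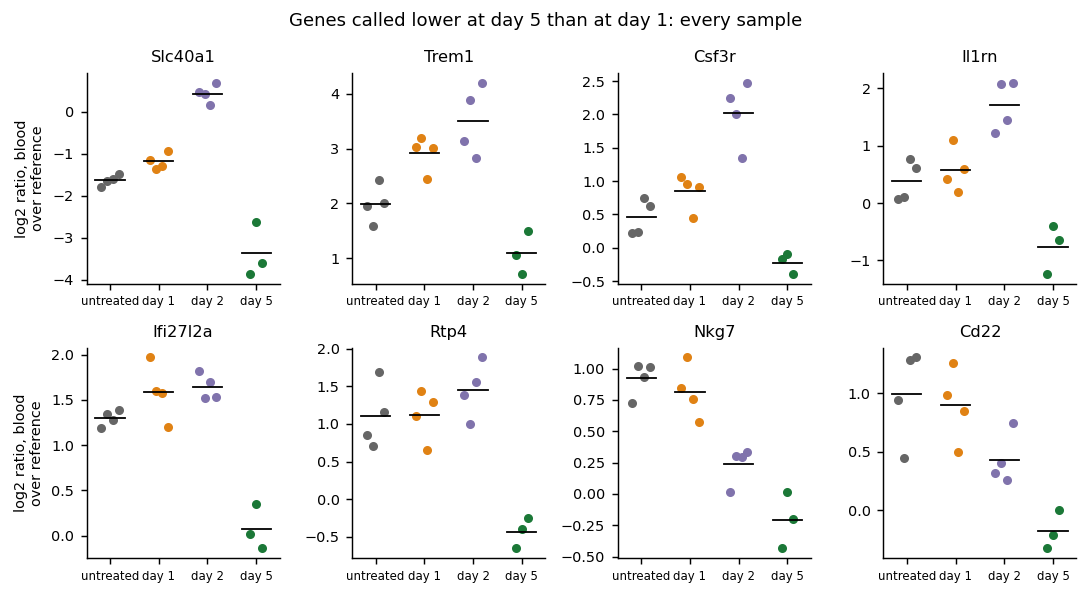
Log2 ratio of blood over the marrow reference (vertical axes, which differ between panels) in every untreated, day 1, day 2 and day 5 sample for 8 genes called lower at day 5 than at day 1. Points are samples and bars are group means, and in each panel the 3 day 5 points lie below the 4 day 1 points, Slc40a1 at -3.87 to -2.62 against -1.36 to -0.94.

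Most B cell genes that were called were lower at day 5. Cd22, an inhibitory co-receptor of B cells, fell from 0.98, 1.26, 0.50 and 0.85 to -0.33, -0.21 and 0.00032, by -1.08 (SE 0.21, adjusted p = 0.00387). Ms4a1, which encodes CD20, fell by -0.98 (SE 0.24, adjusted p = 0.0135), with day 1 values of -0.67 to 0.12 and day 5 values of -1.97, -0.85 and -1.35, and Fcmr, the receptor for immunoglobulin M, by -0.72 (SE 0.17, adjusted p = 0.0106). Without day 5 replicate 1 the last 2 were not called (-0.69, adjusted p = 0.0806, and -0.60, adjusted p = 0.061). Cd72, another B cell co-receptor, was called higher (1.21, SE 0.39, adjusted p = 0.0468), but its groups overlapped, since day 5 replicate 3 was at -0.52 beside 0.91 and 1.10. That call was lost after quantile normalization and without day 1 replicate 1, 2 or 4 or day 5 replicate 1 or 2 (0.91 to 1.21). The B cell list thus had 3 members lower and 1 higher of 11 tested, against 7.33% and 8.21% of all features tested. Its median was -0.15 and became 0.024 without day 5 replicate 3. Xbp1, the transcription factor of antibody-secreting cells, was higher by 1.17 (SE 0.24, adjusted p = 0.00889) over 3 day 1 and 2 day 5 values, and was not called without day 5 replicate 2 (1.10, adjusted p = 0.0591), which leaves 1 day 5 value that is assumed to vary like the other groups. With Pdia4 it made 2 calls, both higher, among 8 tested members of the antibody secretion list, against 8.21% of all features tested. The median of that list was 0.26, with 5 positive and 3 negative changes, the lowest being Sec11c at -0.59, which was not called. Pdia4 itself was not called without day 1 replicate 1 (1.16), day 1 replicate 2 (1.12), day 5 replicate 1 (1.12) or day 5 replicate 2 (1.35). None of 6 genes of antigen presentation by MHC class II was called, from H2-DMb2 at -0.22 to H2-DMb1 at 0.28, which are close relatives; 2 of the 6 had an unadjusted p under 0.05 in limma.

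All 7 tested T cell genes had a negative change and none was called, with 2 at an unadjusted p under 0.05 in limma. Their median change was -0.69, from Lat, the adaptor downstream of the T cell receptor, at -1.29 (SE 0.65, adjusted p = 0.199) to Cd8b1, the CD8 beta chain, at -0.26 (SE 0.41, adjusted p = 0.699). The groups overlapped for each of them, and both probes of Lat were lower at day 5 but by unequal amounts (-1.58 and -0.15). Without day 5 replicate 3 there were 2 T cell members called lower, and without day 1 replicate 3 there was 1. Nkg7, a granule protein of NK and cytotoxic T cells, fell from 0.84, 1.09, 0.76 and 0.58 to -0.43, 0.016 and -0.20, by -1.02 (SE 0.15, adjusted p = 0.00115). Klrd1, or CD94, fell by -0.66 (SE 0.19, adjusted p = 0.0331), and Tbx21, the transcription factor T-bet, by -0.47 (SE 0.12, adjusted p = 0.0199). Klrd1 was not called without day 1 replicate 1 or 2 or day 5 replicate 1 or 2 (-0.67 to -0.55), and Tbx21 not without day 1 replicate 2 or 4 or day 5 replicate 1 (-0.46 to -0.39). These were the 3 calls among 9 tested NK and cytotoxic members, all lower, against 7.33% of all features tested called lower. Of the 9, 8 had a negative change (median -0.46), the exception being Klrb1c at 0.023.

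Some receptors that direct lymphocytes also fell. Of 10 homing and adhesion genes 3 were called lower and 1, Ccr9, higher, against 7.33% and 8.21% of all features tested. The median was -0.46. Cxcr3, the chemokine receptor of activated T and NK cells, was at 0.61, 0.56, 0.47 and 0.60 at day 1 and at -0.24, -0.14 and -0.019 at day 5, a fall of -0.69 (SE 0.14, adjusted p = 0.00387). S1pr4, a sphingosine-1-phosphate receptor of leukocytes, fell by -0.49 (SE 0.15, adjusted p = 0.0367) and Icam2, an adhesion molecule, by -0.45 (SE 0.13, adjusted p = 0.0298). The S1pr4 call held only without day 1 replicate 3 among the 7 samples left out in turn (-0.53 to -0.43 where lost), and the Icam2 call was lost without day 1 replicate 2 or 4 or day 5 replicate 1 or 3 (-0.44 to -0.41). Among 5 genes of regulatory T cells and checkpoints, Tnfrsf18, which encodes GITR, fell by -0.95 (SE 0.21, adjusted p = 0.00762), and Izumo1r, or folate receptor 4, rose by 1.10 (SE 0.22, adjusted p = 0.00387). Ctla4, the inhibitory receptor, changed by -1.01 (SE 0.38, adjusted p = 0.082) and was not called.

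Early-response genes that were called were mostly lower. In the immediate early list 4 of 15 tested members were called lower and 1 higher, against 7.33% and 8.21% of all features tested. The median change was -0.53. Rgs2, a regulator of G protein signalling, fell from 1.90, 2.13, 1.80 and 1.62 to 0.91, 0.90 and 0.85, by -0.98 (SE 0.12, adjusted p = 0.000376), and its relative Rgs1 from 2.75, 3.07, 2.73 and 3.90 to 1.80, 1.87 and 1.18, by -1.50 (SE 0.30, adjusted p = 0.00448). After quantile normalization Rgs1 changed by -0.78 (adjusted p = 0.0701). Dusp2, a phosphatase of MAP kinases, fell by -1.59 (SE 0.44, adjusted p = 0.0249), with day 5 replicate 1 (1.17) just above the lowest day 1 value (1.15). It was not called without day 1 replicate 2 (-1.22), day 5 replicate 2 (-1.38) or day 5 replicate 3 (-1.38). Dusp1, another such phosphatase, showed the largest difference of the list but was not called: 4.69, 4.16, 4.29 and 2.75 at day 1 against 1.50 and -0.22 at day 5, with no value in replicate 3 (change -3.33, SE 1.11, adjusted p = 0.0561). Myc, which drives growth, rose by 0.82 (SE 0.20, adjusted p = 0.0122), and was not called without day 5 replicate 2 (0.66, adjusted p = 0.0694).

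Of 18 cytokines and chemokines 3 were called lower and 1 higher (median -0.22), against 7.33% and 8.21% of all features tested. Il1rn, the interleukin-1 receptor antagonist, fell from 0.43, 1.09, 0.19 and 0.59 to -1.24, -0.41 and -0.65, by -1.34 (SE 0.27, adjusted p = 0.00455). Ereg, an epidermal growth factor family member, fell by -1.87 (SE 0.46, adjusted p = 0.013) and Cxcl1, a neutrophil attractant, by -1.36 (SE 0.38, adjusted p = 0.0275). Ereg was not called without day 5 replicate 1 (-1.64, adjusted p = 0.0667), nor Cxcl1 without day 1 replicate 1 (-1.12), day 5 replicate 1 (-1.50) or day 5 replicate 2 (-1.17). Ccl2, a monocyte attractant, was higher by 1.29 (SE 0.41, adjusted p = 0.0441), a call that was lost without any sample but day 1 replicate 1 (1.00 to 1.50). Cxcl12, the marrow retention chemokine, had the highest change of the list at 1.66 with an SE of 0.67 (adjusted p = 0.11).

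Targets of p53, the factor that responds to DNA damage, gave 2 calls lower and 1 higher among 10 tested, with a median of -0.30. Over all features tested 7.33% were called lower and 8.21% higher. Polk, a polymerase that copies past damaged bases, fell from between -0.0036 and 0.24 to -0.82, -0.79 and -0.53, by -0.78 (SE 0.13, adjusted p = 0.00208). Btg2, an antiproliferative gene that the immediate early list also holds, fell by -1.05 (SE 0.27, adjusted p = 0.0161), and was not called without day 1 replicate 2 (-0.98, adjusted p = 0.0517) or day 5 replicate 2 (-0.83, adjusted p = 0.09). Tnfrsf10b, a death receptor, rose from -0.30, -0.39, 0.45 and 0.20 to 1.43, 1.33 and 0.83, by 1.21 (SE 0.21, adjusted p = 0.00235). None of 13 DNA repair genes was called, from Tdg at -0.31 to Apex1 at 0.40, and 2 of them had an unadjusted p under 0.05 in limma.

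The largest falls among genes with values in all 7 samples were not confined to the lists. Slfn4, a schlafen gene of myeloid cells, was at 1.19, 2.01, 1.47 and 1.63 at day 1 and at -0.55, -1.58 and -1.40 at day 5 (change -2.75, SE 0.60, adjusted p = 0.00729), a 6.73-fold fall on the log2 reading. Itga6, the integrin alpha 6 chain, fell from 2.10, 3.68, 1.74 and 2.45 to 0.059, -0.56 and 0.023, by -2.65 (SE 0.44, adjusted p = 0.00272). Dapl1, a small death-associated protein, fell from 3.03, 2.83, 2.81 and 3.05 to 0.89, 0.36 and 0.56, by -2.32 (SE 0.39, adjusted p = 0.00221). Serpinb6a, an intracellular inhibitor of serine proteases, fell by -2.35 (SE 0.41, adjusted p = 0.00226), and Hcar2, the niacin receptor, by -2.19 (SE 0.53, adjusted p = 0.0117). Transcriptional and translational regulators were also among them: Ets2 at -2.09 (SE 0.46), Id2, an inhibitor of helix-loop-helix factors, at -1.93 (SE 0.43), and Pdcd4, an inhibitor of translation, at -1.86 (SE 0.41), with adjusted p between 0.00707 and 0.00819. Rbpms2, an RNA-binding protein, fell by -1.75 (SE 0.32) and Rasip1, a Ras-interacting protein of vessels, by -1.71 (SE 0.32). The falls of Capn3, a calpain protease (-2.48, SE 0.68, adjusted p = 0.0269), and of Ywhah, a 14-3-3 protein (-1.81, SE 0.50, adjusted p = 0.0259), were less secure. Capn3 spread from 0.41 to 3.45 within day 1 and was not called without day 1 replicate 2 (-2.06), day 1 replicate 4 (-2.06), day 5 replicate 1 (-2.23) or day 5 replicate 2 (-2.61). Ywhah was not called without day 1 replicate 1 (-1.61), day 1 replicate 3 (-1.70), day 5 replicate 1 (-1.74) or day 5 replicate 2 (-1.63), nor Hcar2 without day 5 replicate 1 (-2.03, adjusted p = 0.0555).

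Housekeeping lists had medians near 0, and the ribosome and respiratory chain lists had shares of calls near the 15.5% of all features tested. Of 33 cytosolic ribosome genes 2 were called higher and 3 lower (median 0.05), and of 35 genes of the respiratory chain and ATP synthase 2 were higher and 3 lower (median 0.01). Rps6, a protein of the small ribosomal subunit, rose from between -1.05 and -0.96 to -0.36, 0.56 and 0.0067, by 1.08 (SE 0.21, adjusted p = 0.00365). Atp5g2, a ring subunit of ATP synthase, fell from between -0.41 and -0.019 to -0.83, -0.73 and -1.01, by -0.66 (SE 0.13, adjusted p = 0.00366), and Atp5d, its delta subunit, fell by -0.53 (SE 0.12, adjusted p = 0.0108), averaged over 2 probes. The Atp5d probe with the most values gave -0.54 alone and was not called (adjusted p = 0.0591). The other ribosomal calls, Rpl37 (0.49), Rpl34 (-1.00), Rps15 (-0.91) and Rps3 (-0.59), had adjusted p between 0.0212 and 0.048. The Rpl37 call was lost without any sample but day 1 replicate 3 or day 5 replicate 2 (0.32 to 0.53), the Rps15 call without any but day 5 replicate 2 (-0.97 to -0.65), the Rps3 call without any but day 1 replicate 4 (-0.63 to -0.51), and that on Rpl34 without day 1 replicate 1 (-0.85) or day 5 replicate 2 (-0.84). Among the respiratory genes Uqcrb (1.07) had only 2 day 5 values, 0.57 and -0.55, so its change was 1.63 with the first alone and 0.51 (adjusted p = 0.194, not called) with the other alone, a lone sample being assumed to vary like the other groups. Uqcrc1 (0.65) lost its call when any 1 sample other than day 5 replicate 3 was left out (0.38 to 0.72). Ndufs7 (-0.54) lost its call without day 1 replicate 1 or 2 or day 5 replicate 1 or 3 (-0.51 to -0.43). Many ribosomal genes have processed copies in the genome, so their probes may read more than 1 locus. Psmc2 was the 1 call among 21 proteasome members (0.54, SE 0.14, adjusted p = 0.0225), a smaller share than over all features tested. The Psmc2 call was lost without day 1 replicate 4 or day 5 replicate 2 (0.49 each).

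Genes of cell types that blood holds few of gave scattered calls. Over all features tested 8.21% were called higher and 7.33% lower. Of 10 endothelial genes, Flt1, a receptor for vascular endothelial growth factor, was higher (0.87, SE 0.17, adjusted p = 0.0037), and Kdr, the other such receptor, lower (-0.88, SE 0.25, adjusted p = 0.028), with overlapping groups because day 1 replicate 3 was at -0.23 beside 0.65 to 0.78. The Kdr call was lost without day 1 replicate 1, 2 or 4 or day 5 replicate 2 or 3 (-0.86 to -0.74). Of 6 stem and progenitor genes, Meis1, a homeobox factor of stem cells, fell by -0.59 (SE 0.18, adjusted p = 0.0354), and was not called without any sample but day 5 replicate 3 (-0.63 to -0.50). Etf1, Osmr and Upk3a had values in all 3 day 5 samples and in no day 1 sample, and no feature showed the opposite. They are named because the count is small, and with no day 1 value no change can be given.

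**Figure D4:**
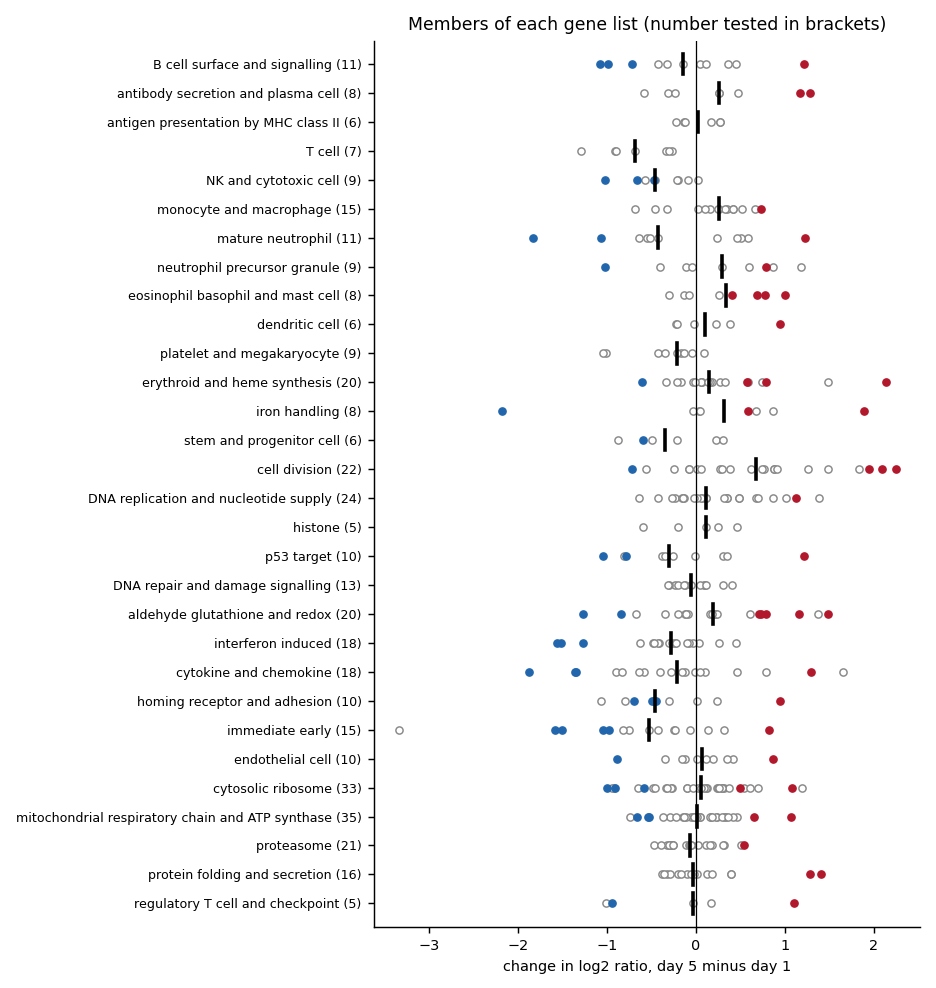
Change in log2 ratio from day 1 to day 5 (horizontal axis) of every tested member of 30 gene lists (rows, with the number tested in brackets). Filled red points were called higher, filled blue points lower and open points were not called; black bars are list medians, of which that of the cell division list is 0.68 and that of the T cell list -0.69.

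The untreated and day 2 samples placed the changes. In 565 of 590 features called higher that had enough values, the untreated mean lay between the day 1 and day 5 means, as it did in 471 of 544 features called lower. The day 1 and day 5 means lay on opposite sides of the untreated mean in most called features. Calls select features with a wide gap between the day 1 and day 5 means, which favours the untreated mean falling between them. No share over features not called stands beside these counts, so no conclusion is drawn from them. For features called higher the median difference was 0.40 from day 1 up to untreated and 0.34 from untreated up to day 5, and for those called lower it was -0.28 and -0.33. Alas2 had an untreated mean of 0.10 ± 0.58 (SD, n = 4), between -1.30 ± 0.46 (SD, n = 4) at day 1 and 0.84 ± 0.48 (SD, n = 3) at day 5. Slc40a1 had one of -1.64 ± 0.12 (SD, n = 4), between -1.18 ± 0.18 (SD, n = 4) and -3.36 ± 0.66 (SD, n = 3). Ccl2 (2.36 untreated, 1.27 at day 1 and 2.56 at day 5) and Cd177 (-2.44, -3.69 and -2.46) were at day 5 close to their untreated means.

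Day 2 was farther from day 5 than day 1 was for most of the rises. Its mean lay below that of day 1 in 454 of the 590 features called higher, between the day 1 and day 5 means in 134 and above day 5 in 2. Among the 544 called lower it lay above day 1 in 293 and between in 251. These counts, too, have no share over features not called beside them. Alas2 reached its lowest mean at day 2 (-2.73 ± 0.94, SD, n = 4), and Slc40a1 its highest (0.43 ± 0.21, SD, n = 4). Csf3r (2.02 at day 2), Trem1 (3.51), Il1rn (1.71) and Gbp2 (3.35) likewise had their highest group means at day 2. The 4 mitotic genes varied widely at day 2: Nusap1 had a mean of -3.51 ± 0.86 (SD, n = 4), beside -3.55 at day 1, and Ube2c one of -2.36 ± 1.18 (SD, n = 3), beside -2.30. Sgo1 (-1.64 ± 1.08, SD, n = 3) and Cdca8 (-2.14 ± 1.39, SD, n = 3) had higher means than at day 1, each with 1 day 2 sample, at -0.40 and -0.57, far above the others. Among lymphocyte genes called lower, the day 2 mean of Nkg7 was 0.24, between 0.82 at day 1 and -0.21 at day 5, and that of Cd22 was 0.43, between 0.90 and -0.18. Fcmr was at 0.31 at day 2 beside 0.25 at day 1, and Ms4a1 at -0.49 beside -0.40.

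Day 2 and untreated samples, which are in neither mean of the change, also separated the called features. Their spread does enter the SE of each call, so they are not independent of the calls. A small spread favours both a call and groups that do not overlap. As a description chosen after the values were seen, every day 2 value lay below every untreated value in 394 of 590 features called higher (66.8%), in 6 of 544 called lower (1.1%) and in 265 of 5381 not called (4.92%). Every day 2 value lay above every untreated value in 2, 234 and 493 of them (0.339%, 43% and 9.16%). Syt9 was lower at day 2 than in untreated blood by -2.87 and Myf6 by -2.64, with Alas2 at -2.83. Sgo1 differed by 0.12 and Mgst3 by 0.50, so for these genes the day 2 mean was not below the untreated mean. Among the falls, Slc40a1 was 2.07 higher at day 2 than in untreated blood and Csf3r 1.56 higher, while Id2 (-0.49) and Dusp2 (-0.80) were lower at day 2.

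**Figure D5:**
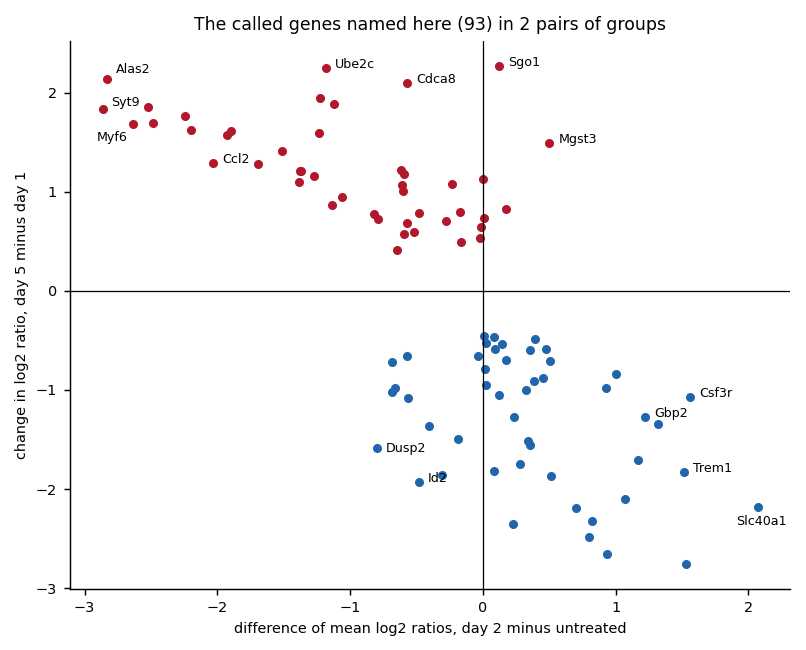
Change from day 1 to day 5 (vertical axis, log2 units) against the difference between the day 2 and untreated means (horizontal axis, log2 units) for the called genes named in the text, red where called higher at day 5 and blue where called lower. Most red points lie left of 0, Syt9 at -2.87 and Alas2 at -2.83, with Sgo1 (0.12) and Mgst3 (0.50) to the right, and blue points lie on both sides.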

How the data were processed

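The 30 deposited columns hold log2 ratios of Cy5 (blood) over Cy3 (marrow pool), per the labels' dyes. The base is not stated; the 14 columns used run from -4.70 to 5.76, beyond log10 of a 16-bit intensity (4.82), and base e is not excluded. No source used here names the scanner, background correction, normalization or filter. Column medians were -0.00276 to 0.0201, so values show unequal change, not amounts.

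Of 13443 probes, 10032 had 1 gene symbol in the platform annotation, 170 several and 3241 none; these last 2 kinds stay unnamed. Probes of a gene, then the 2 technical replicates of a sample, were averaged. Features with values in at least 2 day 5 and 3 day 1 samples were tested with limma 3.58.1 (R 4.3.3), 1 mean per group over all 15 samples, Benjamini-Hochberg adjusted over all 7599 features and called under 0.05. The procedure was tested on simulated data. Same-numbered day 1 and day 5 samples deviated with r of -0.0405, -0.148 and -0.349, so numbers were not taken as pairs. The effect of 19 alternatives is given in the closing section. All 30 columns were mapped to samples.

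The groups compared, the lists and the tests were chosen with earlier results of these data known. Genes named are the 15 largest non-overlapping called rises and falls with values in all 7 samples, every called list member, the highest and lowest member of lists, and core markers.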

Additional observations from a re-analysis of the deposited data

Results flagged for a closer look

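Among the 116 named genes with 4 day 1 values, 7 had a day 1 sample far from the other 3, a gap that chance gives in about 1 of 20 groups of 4. Day 1 replicate 2 was the distant sample for Sgo1 (-3.05, nearest -2.79), Gsto1 (2.28, nearest 1.51), Polk (0.24, nearest 0.027) and Atp5d (-0.16, nearest -0.33). Day 1 replicate 3 was distant for Kdr (-0.23, nearest 0.65) and Tspo2 (-0.94, nearest -1.49), and day 1 replicate 1 for Pf4 (4.43, nearest 3.81). Without day 1 replicate 2 Sgo1, Polk and Atp5d were still called.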

How the results depend on the processing

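Over 19 alternatives the number of features called, 1181 in the report, ran from 647 to 1626. With 1 sample left out it was 647 to 1520, with 363 to 774 called higher and 271 to 746 called lower. None of the 93 named called genes changed sign, and 50 kept their call in every alternative that tested them. With the replicate number as a block, which the labels do not show to pair samples, 883 features were called (509 higher and 374 lower, a replicate block result). Quantile normalization gave 1077 calls, of which 989 were among the 1181, and ended those on Cd177, Rgs1, Cd72, Icam2 and Ndufs7. Of the 93 named calls, 14 were lost with technical replicate 1 alone, among them Tbx21 (-0.25, adjusted p = 0.191), 11 with technical replicate 2 alone, among them Prdx3 (0.45, adjusted p = 0.351), and 16 with the replicate block. The block also lowered the median change of the cell division list from 0.68 to 0.43 and the number of mast cell and basophil members called higher from 4 to 2. Quantile normalization turned the medians of the platelet list (0.20) and the neutrophil precursor granule list (-0.09). Uncalled genes that changed sign were H2bc4 (0.11) and Itga2b (0.20) after quantile normalization, Tcf4 (0.078) with technical replicate 2 alone, Klrb1c without day 1 replicate 1 (-0.012), day 1 replicate 4 (-0.027) or day 5 replicate 2 (-0.072), F2rl2 without day 1 replicate 3 (-0.025) or day 5 replicate 3 (-0.34; up to 0.57 with another sample left out), and Hba-a1 without day 5 replicate 3 (-0.042; up to 0.14). The cause was not tested. With 3 day 5 samples, small changes may go uncalled, and empty values limit which genes could be tested.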
